A study of Arabidopsis thaliana with 12 samples.

Results

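LHB1B2 and PSAN encode proteins at the antenna and the core of the photosynthetic light reactions, and each had a spot of its own on an array that compared the Arabidopsis thaliana toc34 mutant with wild type. LHB1B2, also called LHCB1.5 (AT2G34420), encodes a chlorophyll a/b-binding protein of the light-harvesting complex of photosystem II. PSAN (AT5G64040) encodes subunit N of photosystem I. They are 2 genes, on 2 of the 3439 spots of the array, taken because the platform annotation lists each as the only gene of its spot. Beside them stands 1 spot that the annotation gives to 3 light-harvesting genes, LHCB4.1, LHCB4.2 and LHCB4.3, which is called the LHCB4 spot here and is not assigned to any of the 3.

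Total RNA was measured on 12 arrays, 6 of toc34 and 6 of wild type, both in the ecotype Columbia 0. The labels describe the mutant as impaired in the import of proteins across the outer chloroplast envelope, and name no allele, tissue, plant age or growth condition. TOC34 and its paralog TOC33 were listed on 0 spots, so the genotype was not checked against the mutated gene. None of the 17 fixed marker genes of seed, root and flower had a spot of its own, so the tissue was not checked either. No source states that arrays of 1 genotype stem from different plants. The p-values hence reflect array-to-array spread, part or all of which can be technical.

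Both genes are nuclear. Their proteins are made in the cytosol as precursors and enter the chloroplast through the import complexes of its envelope, of which TOC34 is a GTP-binding receptor. In the thylakoid membrane, LHCB1 proteins form most of the trimers of the main antenna, which pass absorbed light energy to photosystem II. LHCB4 proteins, also known as CP29, are minor antenna proteins that link those trimers to the photosystem II core. PSAN lies on the lumen side of photosystem I, where electrons arrive from plastocyanin. The LHCB1 genes are known to be close copies of each other, and the next protein-coding gene beside LHB1B2 in the RefSeq annotation is LHB1B1, also called LHCB1.4. Whether the LHB1B2 spot also bound transcripts of other LHCB1 genes was not tested, and its values are uncertain in that respect. No probe, promoter or protein sequence of these genes was used here.

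The arrays differed in their overall brightness. The summed intensity of all spots ran from 2641 to 3553 in wild type and from 1988 to 3105 in toc34, and the medians of the log2 intensities differed by up to 0.50 between arrays. Within a genotype, arrays with neighbouring replicate numbers (1 and 2, 3 and 4, 5 and 6) were the most alike. Across spots they correlated at 0.957 to 0.980 in wild type, against 0.920 to 0.949 for other wild-type arrays, and at 0.877 to 0.916 in toc34, against 0.806 to 0.835. The 12 arrays may thus hold fewer than 12 independent samples.

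LHB1B2 was lower in toc34 than in wild type on every array as deposited. Its deposited intensity, a linear value whose unit is not stated, was 21.5 at the lowest, 27.3 at the median and 35.3 at the highest on the 6 wild-type arrays. On the 6 toc34 arrays it was 10.7, 14.0 and 17.0. The genotypes did not overlap, and the brightest toc34 array, replicate 2, stayed below the dimmest wild-type array, replicate 1. The means were 28.3 ± 5.10 in wild type and 14.0 ± 2.45 in toc34 (SD, n = 6 arrays each). All measured toc34 values lay below all wild-type values in this way for 14.1% of the 2768 spots that could be tested. In such bulk RNA, fewer cells of a type and less RNA per cell cannot be told apart. A gap in deposited intensity also carries the difference in brightness between arrays.

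PSAN, too, had a lower mean in toc34. Its deposited intensity was 5.04 at the lowest, 6.62 at the median and 7.37 at the highest in wild type. In toc34 it was 3.14, 3.49 and 5.38. The ranges overlapped through toc34 replicate 4, which lay above wild-type replicates 1 and 2. The means were 6.31 ± 0.945 and 3.96 ± 0.976 (SD, n = 6 arrays each). Replicates 3 and 4, the toc34 arrays with the highest summed intensity, had its highest toc34 values, 5.01 and 5.38, while the other 4 toc34 arrays lay between 3.14 and 3.56.

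The LHCB4 spot, much dimmer, had an intensity of 0.711 at the lowest, 0.825 at the median and 1.24 at the highest in wild type. In toc34 these values were 0.263, 0.484 and 0.624. The genotypes did not overlap. The means were 0.924 ± 0.229 in wild type and 0.464 ± 0.164 in toc34 (SD, n = 6 arrays each).

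**Figure D1:**
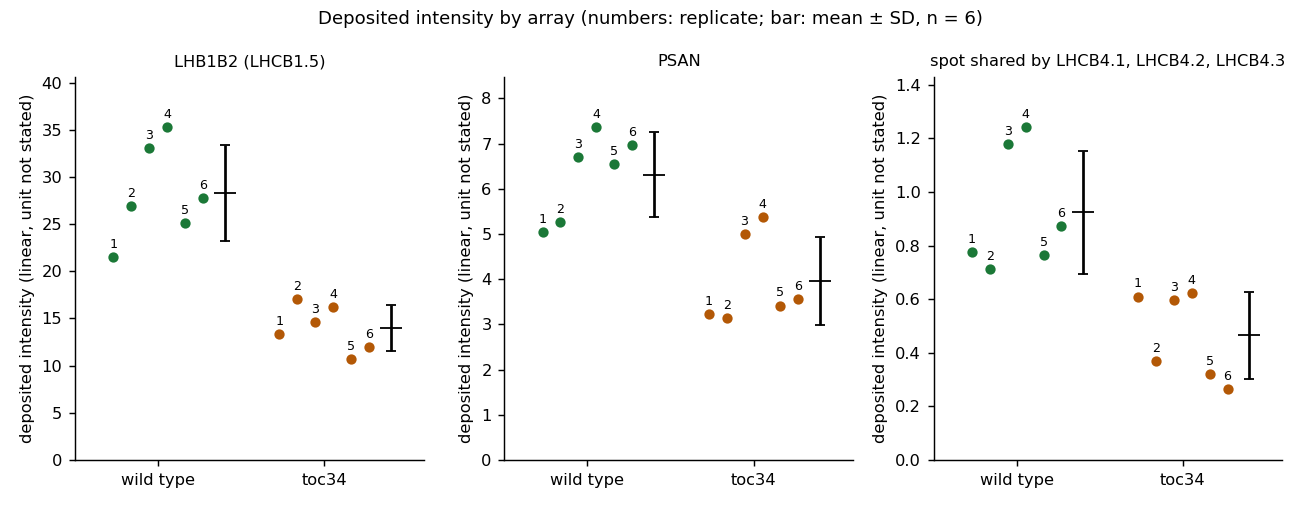
Deposited intensity (linear scale, unit not stated) of LHB1B2, PSAN and the LHCB4 spot on each of the 12 arrays, with the replicate number at each point and the mean ± SD of 6 arrays beside each genotype. The wild-type and toc34 values are separate for LHB1B2 (lowest wild type 21.5, highest toc34 17.0) and for the LHCB4 spot (0.711 and 0.624), and overlap for PSAN (5.04 and 5.38).

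Taken on the log2 scale and quantile-normalized, which gives all arrays the same distribution of values, the differences of LHB1B2 and PSAN did not pass the test. LHB1B2 had a mean normalized log2 level of 4.42 ± 0.12 in wild type and 3.97 ± 0.41 in toc34 (SD, n = 6 arrays each). The log2 difference, toc34 minus wild type, was -0.45 (SE 0.19, 95% interval -0.86 to -0.04, limma adjusted p = 0.0809). PSAN had 2.49 ± 0.28 in wild type and 2.1 ± 0.21 in toc34, a difference of -0.39 (SE 0.17, interval -0.75 to -0.02, limma adjusted p = 0.0909). Both missed the threshold of 0.05, which was applied after Benjamini-Hochberg adjustment over all 2768 tested spots. The intervals leave out 0 and reach far below it, so the test does not show that either gene was unchanged.

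The LHCB4 spot fell in toc34. Its normalized log2 level was -0.23 ± 0.16 in wild type and -1.13 ± 0.36 in toc34, a difference of -0.90 (SE 0.18, interval -1.29 to -0.51, limma adjusted p = 0.00204), or a 1.87-fold lower level. The normalized values of the genotypes did not overlap, which held with toc34 lower for 12.1% of tested spots. Across the array 36.0% of tested spots were called in either direction and 18.9% were called lower in toc34, so a single called spot is not set apart by its call.

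The result for both genes turned on how the arrays were scaled. When arrays were centred on their medians instead, LHB1B2 fell by 0.92 on the log2 scale or 1.89-fold (SE 0.15, limma adjusted p = 0.000521), and PSAN fell by 0.60 or 1.51-fold (SE 0.14, adjusted p = 0.00542). On this scale 20.2% of tested spots were called lower. The toc34 values then lay below all wild-type values for LHB1B2 (6.05 to 6.64 against 6.83 to 7.39 above the array median), for PSAN (4.2 to 4.59 against 4.73 to 5.21) and for the LHCB4 spot (0.71 to 1.83 against 1.92 to 2.56), as they did for 13.2% of all tested spots. On the deposited scale, where 21.3% were called lower, LHB1B2 fell 2.02-fold (-1.02, SE 0.19, adjusted p = 0.00120) and PSAN 1.62-fold (-0.69, SE 0.20, adjusted p = 0.0155). With cyclic loess, which removes differences between arrays that depend on the level and called 17.8% lower, LHB1B2 fell 1.43-fold (-0.51, SE 0.14, adjusted p = 0.0119) and PSAN had a difference of -0.26 (SE 0.15, adjusted p = 0.212). The LHCB4 spot fell on each of these scales, by 0.94, 1.04 and 0.79 on the log2 scale in that order, with limma adjusted p from 0.00345 to 0.00941. The negative sign was thus common to all 3 spots and 4 scales, and the call of LHB1B2 was missing with quantile normalization, that of PSAN with quantile normalization and cyclic loess.

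The median difference of all spots moved with the scale as well. It was -0.05 after quantile normalization, -0.10 with arrays centred on their medians, -0.20 on the deposited scale and -0.05 with cyclic loess. Relative to it, LHB1B2 lay at -0.40, -0.82, -0.81 and -0.46 in the same order. PSAN lay at -0.34, -0.50, -0.49 and -0.21, and the LHCB4 spot at -0.85, -0.84, -0.84 and -0.74. The LHCB4 spot thus differed little between these 4 scales, while the distance of LHB1B2 from the median was -0.40 after quantile normalization and -0.82 with centring.

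**Figure D2:**
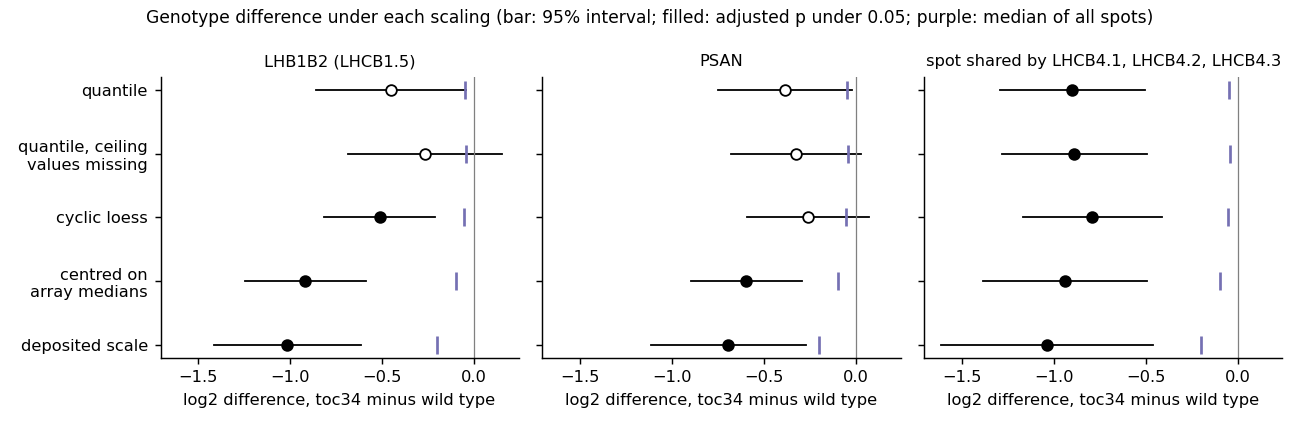
Log2 difference, toc34 minus wild type, of LHB1B2, PSAN and the LHCB4 spot under 5 treatments of the scale, with 95% intervals from limma, filled points for adjusted p under 0.05 and the median of all tested spots as a purple mark. LHB1B2 lies at -0.45 after quantile normalization and at -0.92 with arrays centred on their medians, while the LHCB4 spot stays between -0.79 and -1.04.

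LHB1B2 stands among the brightest spots of the array. Its mean level was at the 99.3rd percentile of tested spots, that of PSAN at the 97.3rd and that of the LHCB4 spot at the 82.4th. On the wild-type arrays LHB1B2 was between the 20th and the 25th brightest spot, with a median rank of 21.5. On the toc34 arrays its rank ran from 20 to 40, with a median of 29.5. It was ranked 26 and 20 on toc34 replicates 1 and 2, next to or inside the wild-type range, and 40, 37, 33 and 26 on replicates 3 to 6. PSAN was between rank 59 and 86 in wild type (median 79) and between 79 and 111 in toc34 (median 93).

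After quantile normalization, bright spots were called more often than all tested spots, in both directions. Of the 139 spots that made up the brightest part of the array by mean level, from the 95th percentile upward, a limit chosen after the data were seen, 49 were called lower and 37 higher after quantile normalization, which is 35.3% lower and 26.6% higher, against 18.9% and 17.2% of all tested spots. With arrays centred on their medians 58 were called lower and 32 higher, on the deposited scale 56 and 24, and with cyclic loess 46 and 43. The median difference of these bright spots was -0.33 after quantile normalization, -0.40 with centring and -0.12 with cyclic loess. More negative differences than that of LHB1B2 were found in 59 of the 139 after quantile normalization and in 44 with centring, and for PSAN the numbers were 63 and 60. In size, the differences of both genes thus lay within those of these 139 spots. Many of them were dimmer than LHB1B2, which was at the 99.3rd percentile. A comparison with spots close to its own level was not made.

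The scale of the table has an upper limit of 100. In toc34 20 values stood at this limit, and in wild type 1. None of the values of the 3 spots was among them. With such values of other spots treated as missing before quantile normalization, which called 18.5% of spots lower, the difference of LHB1B2 was -0.27 (limma adjusted p = 0.308) and that of PSAN -0.33 (adjusted p = 0.138), while the LHCB4 spot fell by 0.89 (adjusted p = 0.00227).

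**Figure D3:**
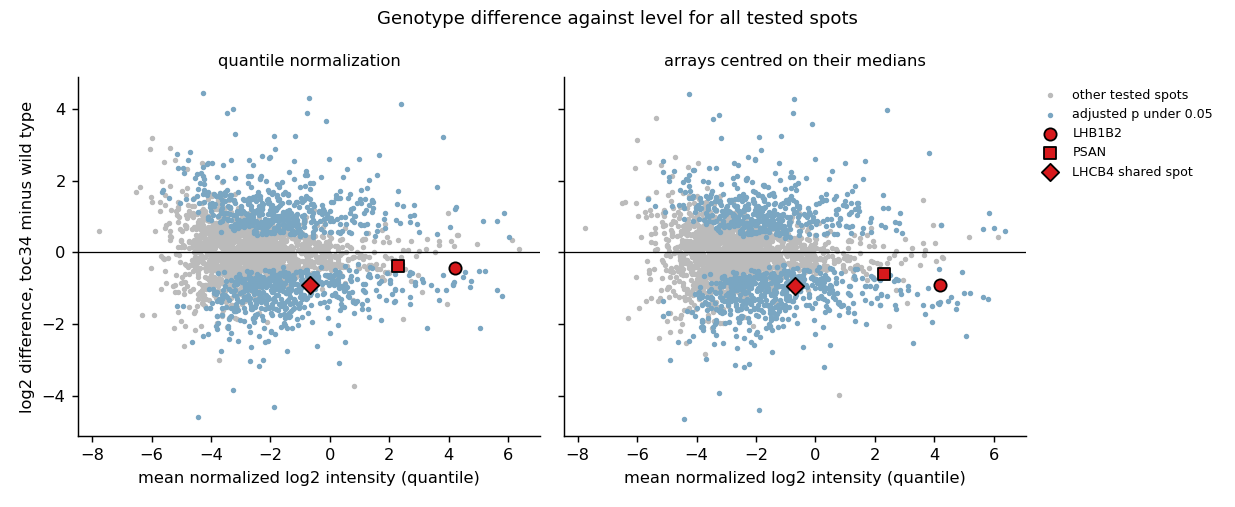
Log2 difference, toc34 minus wild type, against mean normalized log2 intensity for the 2768 tested spots, with quantile normalization on the left and arrays centred on their medians on the right, and called spots in blue. LHB1B2 (99.3rd percentile of level) and PSAN (97.3rd) sit at the bright end and lie lower on the right (-0.92 and -0.60) than on the left (-0.45 and -0.39).

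The difference of LHB1B2 was uneven over the replicate numbers. After quantile normalization it was -0.0025 within numbers 1 and 2, -0.97 within 3 and 4 and -0.38 within 5 and 6. On toc34 replicate 2 its normalized level of 4.55 was above every wild-type array, which ran from 4.24 to 4.52. The other 5 toc34 arrays lay between 3.48 and 4.2, below all 6 wild-type arrays. Without toc34 replicate 2 the difference was -0.57 and passed the test (limma adjusted p = 0.0227), and none of the other 11 arrays gave a call when left out. With arrays centred on their medians the 3 differences were -0.53, -1.23 and -0.99, and the call was kept without each of the 12 arrays in turn (limma adjusted p up to 0.00183).

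For PSAN the normalized differences were -0.45 within numbers 1 and 2, -0.21 within 3 and 4 and -0.50 within 5 and 6. The 6 ratios of its deposited intensity between toc34 and the wild-type array of the same number ran from 0.510 to 0.747, and those of LHB1B2 from 0.424 to 0.633. For the LHCB4 spot they ran from 0.302 to 0.785. Its normalized differences were -0.49, -0.99 and -1.22 in the same order of numbers, smallest on numbers 1 and 2. On toc34 replicate 1 the LHCB4 spot had an intensity of 0.610, against 0.370 on replicate 2.

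When neighbouring arrays were averaged to 3 values per genotype, no call was left. The limma adjusted p after quantile normalization was then 0.313 for LHB1B2, 0.359 for PSAN and 0.0597 for the LHCB4 spot, where 13.8% of all spots were still called. With centring and averaging together it was 0.0526, 0.145 and 0.0787. With neighbouring numbers as a random block and centring, both genes and the LHCB4 spot fell (adjusted p = 0.00604, 0.0229 and 0.0251), where 11.8% of spots were called lower.

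Ratios between spots of 1 array do not depend on a factor common to all its spots, and were used to ask whether the 3 spots changed unequally. They still carry differences between arrays that depend on the level, so the answer holds for deposited values only. On the deposited scale LHB1B2, PSAN and the LHCB4 spot differed by -1.02, -0.69 and -1.04. After quantile normalization these differences were -0.45, -0.39 and -0.90. The deposited intensity of LHB1B2 over that of PSAN was 3.84 to 5.11 on the wild-type arrays and 2.93 to 5.42 on the toc34 arrays. It lay below the whole wild-type range on toc34 replicates 3 to 6, within it on replicate 1 and above it on replicate 2. The mean log2 ratio was 2.16 ± 0.17 in wild type and 1.84 ± 0.34 in toc34 (SD, n = 6 arrays each), a difference of -0.32 that did not pass an exact two-sided permutation test (p = 0.0714, adjusted p = 0.201 over the 3 ratios). Without toc34 replicate 2 the difference was -0.44 (exact permutation test, adjusted p = 0.0325). That was the only 1 of the 12 runs with an array left out that passed, with adjusted p up to 0.364.

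The ratio of LHB1B2 to the LHCB4 spot differed between genotypes by less than its spread over arrays. Its mean log2 value was 4.95 ± 0.18 in wild type and 4.98 ± 0.46 in toc34, a difference of 0.02 (exact permutation p = 0.918, adjusted p = 0.918). The log2 ratio of PSAN to the LHCB4 spot was 2.79 ± 0.24 and 3.14 ± 0.45, a difference of 0.35 (exact permutation p = 0.134, adjusted p = 0.201). The smallest p that 6 against 6 arrays can give in this test is 0.00216. This test treats all arrays as exchangeable, although arrays with neighbouring replicate numbers were alike and may not be independent. No p-value with neighbouring arrays averaged or blocked is given here for the ratios. The p-values of the 3 ratios, with or without an array left out, may therefore be too small. In each of the 3 ratios the SD was larger in toc34 than in wild type.

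**Figure D4:**
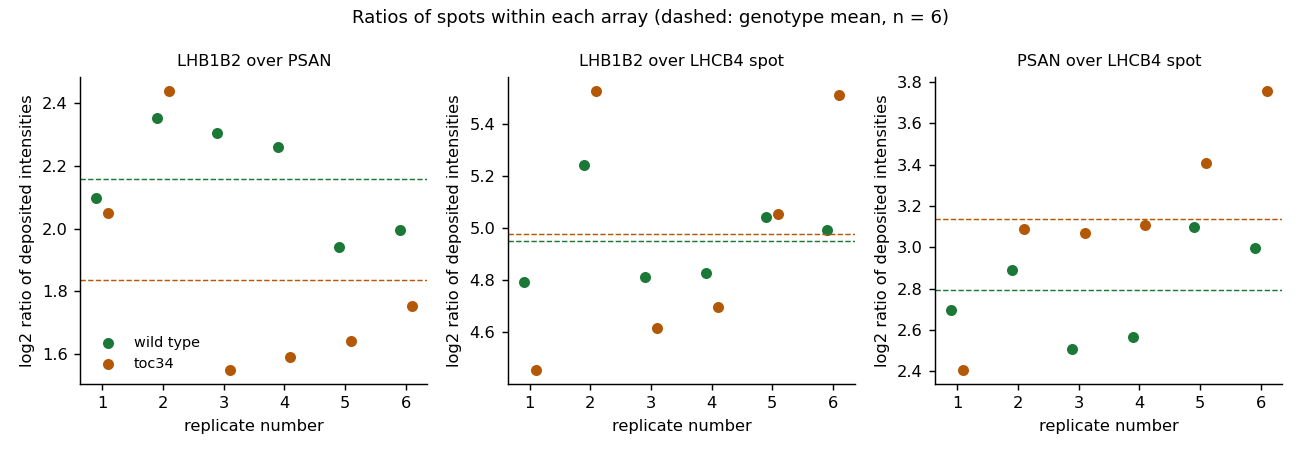
Log2 ratios of deposited intensities between spots of the same array, by replicate number, for wild type and toc34, with the mean of 6 arrays per genotype as a dashed line. The LHB1B2 to PSAN ratio has means of 2.16 in wild type and 1.84 in toc34, with toc34 replicates 3 to 6 lowest, and the LHB1B2 to LHCB4 ratio has means of 4.95 and 4.98.

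After quantile normalization, LHB1B2 and PSAN did not vary together from array to array. Their correlation on the other scales is not given here. The deviations of their normalized levels from the genotype means correlated at -0.17 over the 12 arrays, and PSAN ranked 308th of the 477 other genes in likeness to LHB1B2. LHB1B2 and the LHCB4 spot correlated at -0.04, and PSAN and the LHCB4 spot at -0.32. Within wild type and within toc34, r was -0.07 and -0.27 for LHB1B2 with PSAN. For LHB1B2 with the LHCB4 spot it was 0.32 and -0.08, and for PSAN with the LHCB4 spot 0.14 and -0.67. Neighbouring arrays are not independent, so these values are descriptions.

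The gene whose deviations were most like those of LHB1B2 over the 12 arrays was NdhS (r = 0.93), a subunit of the chloroplast NADH dehydrogenase-like complex that takes electrons from ferredoxin. Within toc34 alone r was 0.97, and within wild type 0.11. NdhS was bright as well, at 21.3 ± 3.59 in wild type and 18.0 ± 4.37 in toc34 (SD, n = 6 arrays each), and its normalized difference was 0.48 (limma adjusted p = 0.0790), which turned to -0.17 (adjusted p = 0.526) with arrays centred on their medians. Next came AT1G04420 (r = 0.91), AT5G49120 (0.90), AT4G22370 (0.87) and AT4G31530 (0.85). Of these 5 genes, AT4G31530 was called higher in toc34 (adjusted p = 0.00108), as 17.2% of all tested spots were, and none was called lower. It stood at the upper limit of the table on toc34 replicates 1 and 2, and these 2 values are lower bounds, so its log2 difference of 0.86 is not an exact size. Its call was lost on the deposited scale (0.56, adjusted p = 0.132) and with neighbouring numbers averaged (0.0723) or averaged with the replicate block (0.118).

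For PSAN the nearest were AT5G06010 (r = 0.81), AT3G09250 (0.80), AT1G73430 (0.79), AT5G05330 (0.78) and AT5G14910 (0.78). Of these, AT5G06010 rose by 1.54 on the log2 scale (limma adjusted p = 0.000295), AT3G09250 by 1.76 (adjusted p = 3.12e-06) and AT5G05330 by 0.62 (adjusted p = 0.0269). Of all tested spots 17.2% were called higher. The call of AT5G05330 was lost on the deposited scale (0.0732), with neighbouring numbers as a random block (0.0768) or averaged (0.200), and averaged with the replicate block (0.179). It was also lost within numbers 1 and 2 (0.28, 0.265), and without wild-type replicate 2, 3 or 4 or toc34 replicate 6 (0.0501 to 0.0612). AT5G14910 had a difference of -0.58 (adjusted p = 0.0927) and AT1G73430 of 0.21 (adjusted p = 0.465). Among these genes, likeness from array to array thus did not always go with the same direction between genotypes. AT5G14910 alone of those nearest PSAN had a negative difference as PSAN did. Likeness could also differ between the genotypes. For AT5G49120 r with LHB1B2 was 0.18 within wild type and 0.96 within toc34. For AT5G14910 r with PSAN was 0.95 within wild type and 0.49 within toc34.

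Few other genes of the same machinery could be set beside these. The lists of light harvesting (21 genes) and photosystem I (12 genes) had 1 single-gene spot each, which are LHB1B2 and PSAN. All 6 photosynthesis lists together, with photosystem II, electron transport and ATP synthase, chlorophyll synthesis and the Calvin cycle, held 88 genes, of which 9 had a spot of their own and 8 could be tested. The Calvin cycle gene SBPASE was listed at 0 on 11 of 12 arrays and was not tested. The 8 are LHB1B2 and PSAN and 6 other genes. After quantile normalization 3 of the 8 fell and 0 rose, where 18.9% of all tested spots were called lower and 17.2% higher. PSB27 of photosystem II had the only positive difference (0.41, limma adjusted p = 0.559). It was called higher within numbers 3 and 4 (0.96, 0.0372), where 14.5% of spots were, and was at -0.56 (0.143) within numbers 1 and 2. Of the 8 differences 7 were negative, with a median of -0.54, against -0.05 over all spots. The share of negative differences over all spots is not given here. Among the negative ones, CHLM (-0.67, limma adjusted p = 0.330) ran from -0.91 to -0.15 with 1 array left out. The median of the 8 was -0.41 with values at the upper limit missing and -0.90 on the deposited scale, against -0.05 and -0.20 over all spots. The 3 that fell were PSBY, a small subunit of photosystem II (-1.41, limma adjusted p = 4.11e-06), the phosphoribulokinase gene PRK (-1.13, 0.00132) and PSBW of photosystem II (-0.53, 0.0379). The call of PSBW was lost with the replicate block (adjusted p = 0.0573), with neighbouring numbers as a random block (0.168) or averaged (0.193), with array weights (0.0791) and with values at the upper limit missing (-0.24, 0.224), and without wild-type replicate 1, 2, 4 or 6 or toc34 replicate 2, 3 or 4 (0.0588 to 0.0803). Further losses of the PSBW call included averaging with the replicate block (0.207), and numbers 1 and 2 (-0.67, 0.192) or 3 and 4 (-0.53, 0.101) alone. The call of PRK was lost when neighbouring numbers were averaged (0.0519) or averaged with the replicate block (0.0828). It was also lost within numbers 1 and 2 (-0.51, 0.126) or 3 and 4 (-1.30, 0.0569). That of PSBY was kept under every alternative run. With arrays centred on their medians 6 of the 8 fell and 0 rose, where 20.2% of all tested spots were called lower, and the same count of 6 was found on the deposited scale, where 21.3% were.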

How the data were processed

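Total RNA of 6 toc34 and 6 wild-type samples was measured on 1 array each, with groups and replicate numbers read from the titles. The authors' deposited values have no stated unit and were treated as linear intensity, because they are never negative and strongly skewed. Background subtraction, labelling, scanner and software are not given in the sources used here, and could move dim values most. Values of 0 were taken as missing. Log2 intensities were quantile-normalized, and a spot needed at least 4 measured values per genotype, which left 2768 of 3439 spots. The test was limma's lmFit with eBayes (limma 3.58.1, R 4.3.3), two-sided and without covariates, and p-values were adjusted by Benjamini-Hochberg across every tested spot. The number of arrays limits the precision.

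Gene names come from the platform annotation of 2016, updated through gene identifiers with the RefSeq table of TAIR10.1 (690 of 692 single-gene spots matched). The annotation gave several genes for 870 spots and none for 1877. The array's genome build is not stated, so no coordinates are given.

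Members, lists and tests were chosen with earlier results of these data known. Named genes are LHB1B2, PSAN, the LHCB4 spot, tested genes of the photosynthesis lists, and the 5 single-gene spots per member, measured on all arrays, with the highest Pearson correlation of deviations from genotype means.

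The deviations of same-numbered arrays correlated at 0.13 to 0.27 for the 6 numbers, all over 0.1, which meets the limit set for a pairing and comes from the values and not the labels. The main test and the permutation test do not use the pairing, and the replicate block was run as an alternative. Across genotypes, same-numbered arrays correlated at 0.794 to 0.813 and others at 0.764 to 0.813, which overlap. Alternatives were other scalings and filters, missing ceiling values, array weights, the replicate block, neighbouring numbers as a random block (statmod 1.5.0, consensus correlation 0.535), averaged or taken separately, and each array left out.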

Additional observations from a re-analysis of the deposited data

Results flagged for a closer look

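For the named genes and the 3 ratios, 44 sets of 6 arrays of 1 genotype were examined for a single distant array, taking its gap to the nearest array as a share of the whole range and Dixon's limit for 6 values. The limit was passed in 5 sets, with 2.2 to be had by chance if the sets were independent and unselected. They are not, because the ratios reuse the values of the 3 spots. The genes most like each member were also picked by deviations of these same arrays. The 2 numbers can therefore not be compared strictly. None of the 5 sets belonged to LHB1B2, PSAN, the LHCB4 spot or their ratios.

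Among the genes most like LHB1B2, NdhS passed it in wild type with a share of 0.637, through replicate 5 at a normalized log2 level of 3.93 against 4.06 to 4.14 on the rest. Among those most like PSAN, AT5G06010 passed it in both genotypes with a share of 0.713 each. Its replicate 6 was the distant array both times, at -1.82 against -2.83 to -2.54 in wild type and at -0.17 against -1.37 to -1.03 in toc34. AT5G14910 passed it in toc34 (0.736), through replicate 3 at -2.43 against -1.65 to -1.37. CHLM, the magnesium-protoporphyrin methyltransferase of chlorophyll synthesis, passed it in toc34 (0.647), through replicate 6 at -4.93 against -2.48 to -1.15.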

How the results depend on the processing

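The differences of LHB1B2 and PSAN were negative under all 27 alternatives listed at the start, and the call was gained under 6 and 2 of them. LHB1B2 passed at -1.02 on the deposited scale, -0.92 centred, -0.51 with cyclic loess, -0.48 with array weights (limma adjusted p = 0.0462), -0.97 within numbers 3 and 4, and without toc34 replicate 2. PSAN passed at -0.69 on the deposited scale and -0.60 centred. With 1 array left out LHB1B2 ran from -0.57 to -0.37, PSAN from -0.45 to -0.30 and the LHCB4 spot from -1.03 to -0.81. The replicate block ended the call of PSBW alone among the genes named (adjusted p = 0.0573) and changed no call of the 3 spots (adjusted p = 0.108, 0.0586 and 0.0104). The LHCB4 spot lost its call at -0.90 with neighbouring numbers averaged (0.0597) and averaged with the replicate block (0.101), and at -0.49 within numbers 1 and 2 (0.305). Centring combined with left-out arrays or blocks was chosen after the data were seen. There LHB1B2 ran from -0.997 to -0.87, PSAN from -0.65 to -0.55 and the LHCB4 spot from -1.06 to -0.83 without single arrays, all called. With centring and averaging the values of -0.92, -0.60 and -0.94 lost their calls (0.0526, 0.145 and 0.0787), and the blocks kept them. The log2 ratio of LHB1B2 to PSAN ran from -0.44 to -0.26, that of LHB1B2 to the LHCB4 spot from -0.085 to 0.13, with a changed sign without wild-type replicate 1 (-0.0067) or 3 (-0.0030) or toc34 replicate 2 (-0.085) or 6 (-0.082), and that of PSAN to the LHCB4 spot from 0.22 to 0.49, with a call without toc34 replicate 1.

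The 997 called spots became 625 with the random block, 381 averaged, 226 averaged with the block and 558 within numbers 5 and 6. The photosynthesis genes called lower, 3 of 8, became 6 on the deposited scale and centred, 1 when averaged with or without the block, 1 within numbers 1 and 2, and 2 to 4 with 1 array left out. Of all tested spots 18.9% were called lower in the main run, 21.3% on the deposited scale and 20.2% centred. The share was 7.0% averaged, 3.9% averaged with the block and 13.7% within numbers 1 and 2. With 1 array left out it ran from 16.3% to 19.7%. Increases made up 47.6% of calls, and 36.2% on the deposited scale. Other named genes changed sign as follows: NdhS at -0.27 on the deposited scale and -0.17 centred; AT1G04420, at 0.07, to -0.11 deposited, -0.011 centred, -0.0045 with cyclic loess, -1.16 within numbers 3 and 4, and -0.012, -0.068, -0.14 and -0.16 without wild-type replicate 5 or toc34 replicate 1, 2 or 6 (up to 0.31 without 1 array); PSB27 at -0.56 and AT1G73430 at -0.25 within numbers 1 and 2; AT5G49120 at -0.25 and AT4G22370 at -0.27 within numbers 3 and 4. The causes were not tested. No depth is known for these intensities.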
